A study of Mus musculus with 6 samples.

Results

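The genes described here were 10 forkhead transcription factor genes that form 5 paralog pairs: Foxf1 and Foxf2, Foxd1 and Foxd2, Foxc1 and Foxc2, Foxl1 and Foxl2, and Foxp1 and Foxp2. They were set by name, with no threshold on their values, and matched by symbol to 10 of the 56691 gene identifiers in the count files. The study examined the developing mouse secondary palate, mainly at the single-cell level, and the bulk RNA-seq used here served to check gene signatures of anterior and posterior cell groups in dissected tissue. Total RNA came from palatal shelves of C57BL/6J mice at embryonic day 14 (E14.0), microdissected at the anterior end (n = 3 libraries) and at the posterior end (n = 3), leaving the middle out. All 6 libraries share strain and stage, and the labels give no modification or treatment. The labels number the libraries of a region as replicates without naming litters, embryos or pools, so p-values measure the spread between these libraries, which may in part be technical. A microdissected shelf holds mesenchyme, epithelium, vessels, nerves and, at its posterior end, muscle, so each value is an average over these cells.

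Forkhead proteins bind DNA through a shared winged-helix domain, and paralogs within a letter group have nearly the same domain and often act in the same tissues. In the palate, Foxf1 and Foxf2 are expressed in the mesenchyme as downstream genes of the hedgehog signal sent by the epithelium, and loss of Foxf2 in mice causes cleft palate. Foxc2 is also required for palate closure in mice, and Foxd1 and Foxl1 mark stromal mesenchyme in other organs.

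The libraries held 11378736 to 15172733 reads counted on genes in the strand used. Levels are given as CPM, the counts of a gene scaled to a library of equal size, after TMM normalization. Log2 fold changes are posterior over anterior, with the standard error (SE) and the Benjamini-Hochberg adjusted p-value of edgeR's quasi-likelihood test over all 15673 genes tested, and a gene was called where that p-value was below 0.05. Posterior replicates 2 and 3 stood apart from the other 4 libraries by a lower share of reads mapping to several places (6.12% and 5.94%, against 8.45% to 8.77%) and of mitochondrial counts (0.973% and 1.14%, against 2.70% to 2.97%). Both are posterior, so this difference and the region cannot be told apart within them. A term for these library groups therefore leaves posterior replicate 1 as the only posterior library in the comparison of regions. The 10 skeletal muscle markers were all higher in the posterior libraries, where their summed level was 583 to 1031 CPM, against 10.4 to 13.2 CPM in the anterior libraries. Neuronal markers added up to 289 CPM in posterior replicate 2, against 35.2 to 51.8 CPM in the other 5 libraries. The part of these differences in the results for the forkhead genes was not tested.

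All 10 forkhead genes passed the filter on low counts, and 6 of them (Foxf1, Foxd1, Foxd2, Foxc2, Foxl2 and Foxp2) were called, beside 7.46% of all genes tested. Foxf1, Foxd2 and Foxl2 were higher in the anterior palate, a direction in which 2.59% of all genes were called. Foxd1, Foxc2 and Foxp2 were higher in the posterior palate, beside 4.87% of all genes. Anterior and posterior libraries were fully separate for 8 of the 10 genes, all but Foxc1 and Foxl1, beside 28% of all genes. All 6 called genes changed by 1.5 or more on the log2 scale, which held, with a call, for 3.48% of all genes. The median absolute log2 fold change was 1.78 over the 10 genes and 0.24 over all genes tested. In the Foxd pair the called changes went in opposite directions, whereas in each of the other 4 pairs only 1 paralog was called.

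**Figure D1:**
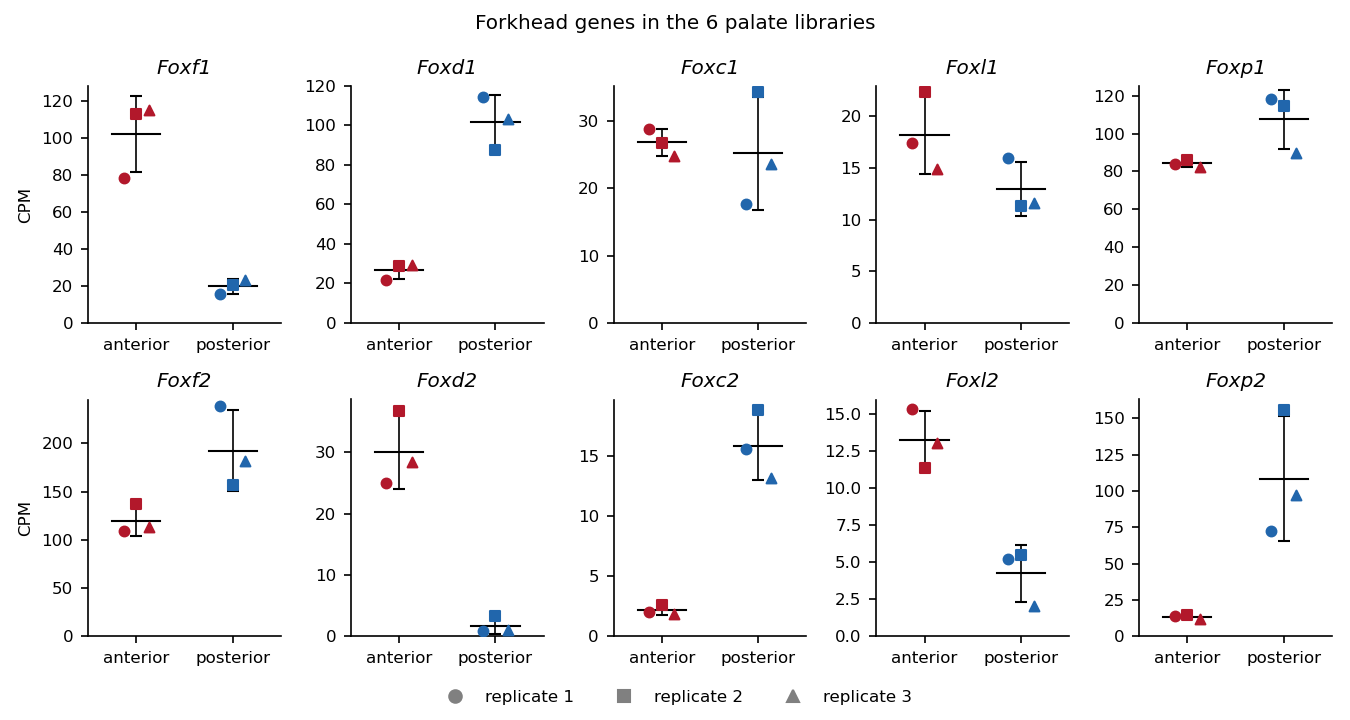
CPM of each forkhead gene in the 6 libraries, with paralogs above each other; markers are single libraries (shape gives the replicate), lines the mean and bars 1 SD (n = 3 per region). Foxf1 and Foxd2 were high in the anterior libraries and Foxd1, Foxc2 and Foxp2 in the posterior libraries, while Foxc1 and Foxl1 overlapped.

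Foxd1 and Foxd2 showed the largest divergence of a pair. Foxd1, a marker of stromal progenitors in the kidney, lies on chromosome 13 (98354242 to 98359305, plus strand). Foxd2, which is expressed in facial and kidney mesenchyme, lies on chromosome 4 (114906282 to 114908873, minus strand). The promoters of this pair are shown because their genes changed in opposite directions, and that of Foxf2 because another called gene starts inside it on the opposite strand. Each is the 250 bases before the gene's start from RefSeq (GRCm38.p6), 5′ to 3′ on the strand of the gene, with CG pairs in capitals (chr13:98353995-98354244, plus strand, for Foxd1; chr4:114908899-114909148, minus strand, for Foxd2; chr13:31625566-31625815, plus strand, for Foxf2).
Foxd1: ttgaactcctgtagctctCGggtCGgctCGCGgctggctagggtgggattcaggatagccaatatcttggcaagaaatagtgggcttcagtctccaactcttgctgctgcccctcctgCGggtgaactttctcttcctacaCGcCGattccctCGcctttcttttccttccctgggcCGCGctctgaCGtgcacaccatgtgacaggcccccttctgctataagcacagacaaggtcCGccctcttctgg
Foxd2: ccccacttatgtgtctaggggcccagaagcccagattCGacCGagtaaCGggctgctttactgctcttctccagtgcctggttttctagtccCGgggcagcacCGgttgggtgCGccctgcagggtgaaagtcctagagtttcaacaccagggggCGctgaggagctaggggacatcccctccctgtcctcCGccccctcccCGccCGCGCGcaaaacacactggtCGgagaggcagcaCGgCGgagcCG
Foxf2: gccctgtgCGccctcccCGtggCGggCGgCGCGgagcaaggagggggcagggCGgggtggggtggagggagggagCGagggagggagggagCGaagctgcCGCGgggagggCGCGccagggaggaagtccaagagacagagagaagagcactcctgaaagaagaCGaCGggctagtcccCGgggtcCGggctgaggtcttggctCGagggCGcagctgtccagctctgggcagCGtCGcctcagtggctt
The GC content was 57.2% with 12 CG pairs for Foxd1, 64.4% with 16 for Foxd2 and 71.6% with 21 for Foxf2. The median over the 32851 promoter windows of the table was 52.4% with 6 CG pairs, so all 3 lay above it.

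The RefSeq table held a promoter for 6 of the 10 genes (Foxd1, Foxd2, Foxf2, Foxc1, Foxl2 and Foxp1), 8 windows in all since Foxp1 had several. Each window was searched on both strands for 5 short motifs. The forkhead motif TGTTTAC was in none of the 8 windows and in 3.17% of all windows, and the GLI motif GACCACCCA, which hedgehog effectors bind, was in none and in 0.225%. The homeodomain motif TAATTA was found at Foxp1 and in 4.84% of all windows. The TATA box TATAAA was in none of the 8 windows and in 12.4% of all windows. CCAAT was in 3 of the 8 windows, at Foxp1, Foxc1 and Foxd1, and in 33.8% of all windows.

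Foxd1 was measured at 21.8, 28.9 and 29.5 CPM in anterior replicates 1, 2 and 3, and at 114.6, 87.5 and 103.1 CPM in posterior replicates 1, 2 and 3. Every posterior library was above every anterior library. Foxd1 rose, with means of 26.7 ± 4.31 and 101.7 ± 13.6 CPM (SD, n = 3 each) and a log2 difference of 1.93 (SE 0.16, adjusted p = 0.000605). Foxd2 ran the other way, at 24.96, 36.8 and 28.4 CPM in the anterior libraries and 0.898, 3.25 and 1.10 CPM in the posterior libraries. The posterior values rested on 12, 45 and 16 counts, and the highest of them was in posterior replicate 2. Foxd2 fell, with means of 30.0 ± 6.09 and 1.75 ± 1.305 CPM (SD, n = 3 each) and a log2 fold change of -4.10 (SE 0.43, adjusted p = 0.00171), the largest change among the 10 genes. Without posterior replicate 2 its log2 fold change was -4.89. With a term for the library groups set apart by multimapping, which leaves posterior replicate 1 alone, it was -5.05.

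In the anterior libraries the paralogs Foxd1 and Foxd2 had about the same CPM, with log2 ratios of Foxd1 to Foxd2 (of CPM with 0.5 added) of -0.19, -0.34 and 0.055. In the posterior libraries the ratios were 6.36, 4.55 and 6.02. The ratio was thus 5.80 ± 0.57 (SE) higher on the log2 scale in the posterior palate, or 55.9-fold. With 2 CPM added in place of 0.5 the difference was 4.99, since Foxd2 was low in the posterior libraries. Per kilobase of exon, Foxd1 made up 31.4% ± 3.05 (SD, n = 3) of the pair's summed level in the anterior palate and 96.6% ± 2.90 (SD, n = 3) in the posterior palate. The summed level itself was 16.9 ± 2.99 CPM per kb (SD, n = 3) in the anterior and 20.8 ± 2.22 CPM per kb (SD, n = 3) in the posterior palate, with overlapping libraries.

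The Foxf pair was the most abundant per length in both regions. Foxf1, a mesenchymal factor of lung, gut and vessels and a hedgehog target, was measured at 78.5, 112.6 and 115.2 CPM in the anterior libraries and at 15.4, 20.4 and 23.2 CPM in the posterior libraries. All anterior libraries were far above all posterior libraries. The anterior mean was 102 ± 20.5 CPM and the posterior mean 19.7 ± 3.96 CPM (SD, n = 3 each), with a log2 fold change of -2.37 (SE 0.20, adjusted p = 0.000744), or 5.18-fold higher in the anterior palate. Foxf2, its paralog in the palatal mesenchyme, was measured at 108.8, 137.05 and 112.9 CPM in the anterior libraries and at 238.7, 156.4 and 181.6 CPM in the posterior libraries. The groups did not overlap, and posterior replicate 1 was the highest. The means were 119.6 ± 15.3 and 192 ± 42.1 CPM (SD, n = 3 each), and the log2 fold change of 0.68 (SE 0.17, adjusted p = 0.0561) did not pass the threshold. Without posterior replicate 1 Foxf2 was called (0.50, adjusted p = 0.0069), as it was with DESeq2 (0.68, adjusted p = 0.0053). With the library-group term, which leaves posterior replicate 1 alone, the log2 fold change was 1.00. Over its 18 alternative settings the log2 fold change of Foxf2 was 0.50 to 1.00. The adjusted p-value was 0.0053 to 0.225 over the settings other than the library-group term.

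Within single libraries the log2 ratio of Foxf1 to Foxf2 was -0.47, -0.28 and 0.029 in the anterior and -3.91, -2.91 and -2.94 in the posterior palate. The paralogs were thus near parity in CPM at the front, and Foxf2 far exceeded Foxf1 at the back. The ratio differed by -3.01 ± 0.36 (SE) between the regions. Per kilobase, the share of Foxf1 in the pair's summed level was 45.3% ± 4.34 (SD, n = 3) in the anterior and 9.46% ± 3.04 (SD, n = 3) in the posterior palate. The sum of Foxf1 and Foxf2 was 92.9 ± 13.2 CPM per kb (SD, n = 3) in the anterior and 89.5 ± 16.6 CPM per kb (SD, n = 3) in the posterior palate, and the libraries overlapped. Because these are bulk samples, fewer cells expressing a gene and less RNA per cell cannot be told apart.

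Foxc1 and Foxc2 act in the mesenchyme of the eye, the skull and the vessels, and Foxc2 also in lymphatic valves. Foxc1 was measured at 28.8, 26.8 and 24.8 CPM in the anterior and 17.7, 34.3 and 23.6 CPM in the posterior libraries. The posterior libraries lay on both sides of the anterior ones, with means of 26.8 ± 2.00 and 25.2 ± 8.44 CPM (SD, n = 3 each). Its log2 fold change of -0.09 (SE 0.23, adjusted p = 0.818) did not pass the test, and it was 0.11 without posterior replicate 1. Foxc2 was measured at 2.05, 2.62 and 1.90 CPM in the anterior libraries, from 27, 36 and 22 counts, and at 15.6, 18.9 and 13.2 CPM in the posterior libraries. The gap between the regions was far wider than the spread within them. Foxc2 rose 7.19-fold (log2 fold change 2.85, SE 0.21, adjusted p = 0.000461), from a mean of 2.19 ± 0.377 CPM to a mean of 15.9 ± 2.86 CPM (SD, n = 3 each). The log2 ratio of Foxc1 to Foxc2 was 3.52, 3.13 and 3.40 in the anterior and 0.18, 0.85 and 0.82 in the posterior libraries, a difference of -2.74 ± 0.25 (SE). Foxc1 thus dominated the pair at the front, with 85.1% ± 2.17 (SD, n = 3) of its level per kilobase, and made up 42.0% ± 6.42 (SD, n = 3) at the back.

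Foxl1, a factor of gut mesenchyme, was measured at 17.5, 22.3 and 14.9 CPM in the anterior and 15.9, 11.3 and 11.6 CPM in the posterior libraries. The libraries overlapped, and the log2 fold change of -0.49 (SE 0.20, adjusted p = 0.184) did not pass the test. Without posterior replicate 1, the highest posterior library, Foxl1 was called (-0.67, adjusted p = 0.0171). Its adjusted p-value was 0.0171 to 0.495 over the alternatives other than the library-group term. Foxl2, known for its role in the ovary and the eyelid, was measured at 15.3, 11.3 and 13.1 CPM in the anterior and 5.24, 5.49 and 2.06 CPM in the posterior libraries. Every anterior library was above every posterior library, the lowest being posterior replicate 3 with 30 counts. Foxl2 fell (log2 fold change -1.64, SE 0.34, adjusted p = 0.0295), with means of 13.2 ± 2.00 and 4.26 ± 1.91 CPM (SD, n = 3 each). This call was the least secure of the 6, being lost without anterior replicate 1 (adjusted p = 0.123), anterior replicate 2 (0.0851), anterior replicate 3 (0.0953) or posterior replicate 2 (0.0618), and with the library-group term (0.133). The adjusted p-value of Foxl2 ranged from 0.000143 to 0.133 over the 18 alternatives. The log2 ratio of Foxl1 to Foxl2 was 0.18, 0.95 and 0.18 in the anterior and 1.52, 0.98 and 2.24 in the posterior libraries, which is the smallest shift of the 5 pairs (1.14 ± 0.44, SE).

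Foxp1 and Foxp2 differ from the other forkhead proteins in this set by a zinc finger and a leucine zipper through which they pair with each other. Foxp1 was measured at 84.0, 86.1 and 82.5 CPM in the anterior and 118, 114 and 89.6 CPM in the posterior libraries. The regions did not overlap, but posterior replicate 3 lay close to the anterior libraries, and the log2 fold change of 0.35 (SE 0.12, adjusted p = 0.130) did not pass the test. Foxp1 was called without posterior replicate 3 (0.47, adjusted p = 0.0403) and without posterior replicate 1 (0.28, adjusted p = 0.0474), among values of 0.0403 to 0.735 over the 18 alternatives. Foxp2, a gene known for its role in speech and in lung development, was measured at 13.8, 15.0 and 12.1 CPM in the anterior and 72.6, 155.7 and 97.3 CPM in the posterior libraries. The anterior libraries were close to each other, while the posterior ones were wide apart and highest in replicate 2, the library with the most neuronal marker RNA. Foxp2 rose, with means of 13.6 ± 1.44 and 108.5 ± 42.7 CPM (SD, n = 3 each) and a log2 fold change of 2.99 (SE 0.28, adjusted p = 0.0011). It was 2.64 without posterior replicate 2 and 2.41 with the library-group term, both below the values of Foxc2 in the same settings (2.71 and 2.82). The log2 ratio of Foxp1 to Foxp2 was 2.56, 2.48 and 2.72 in the anterior and 0.70, -0.44 and -0.12 in the posterior libraries, a difference of -2.54 ± 0.35 (SE).

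**Figure D2:**
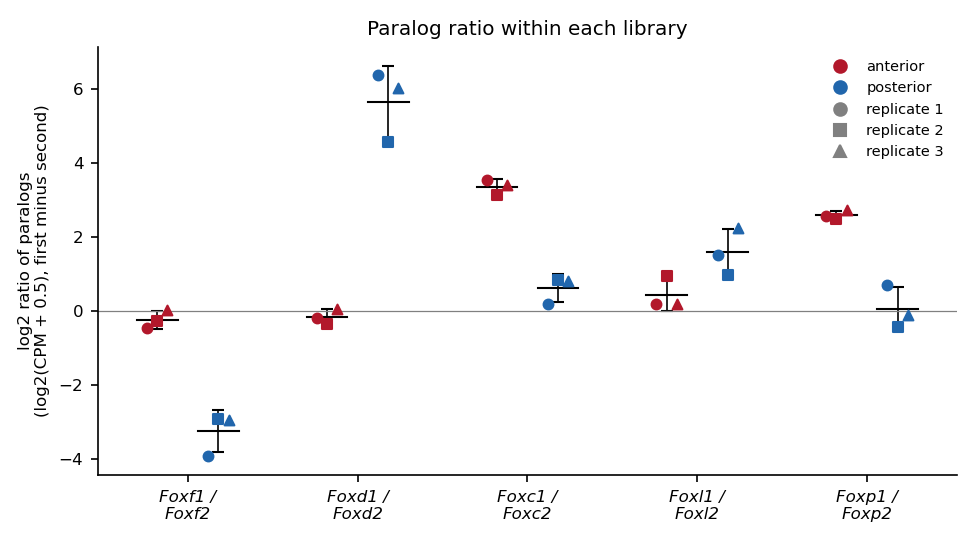
Log2 ratio of the first to the second paralog within each library, computed on CPM with 0.5 added; markers are libraries, lines the mean and bars 1 SD (n = 3 per region). No pair overlapped between the regions, and the shift was widest for Foxd1 over Foxd2 (5.80) and narrowest for Foxl1 over Foxl2 (1.14).

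The ratio of paralogs within a library depends little on library scaling except where a gene is near the 0.5 CPM added, and it was compared between the regions for all 5 pairs. Anterior and posterior libraries overlapped in none of them. A two-sided exact permutation test gave p = 0.1 for each pair, which is the smallest value that 3 against 3 libraries can give, and 0.1 after adjustment over the 5 pairs. The ratio shifted toward Foxd1, Foxl1, Foxf2, Foxc2 and Foxp2 in the posterior palate. The share of Foxp1 in its pair per kilobase went from 88.0% ± 0.903 (SD, n = 3) to 55.0% ± 9.94 (SD, n = 3), and that of Foxl1 from 62.0% ± 7.21 (SD, n = 3) to 79.0% ± 7.92 (SD, n = 3). The same permutation test on the summed levels, adjusted over the 5 pairs, gave p = 0.8 (Foxf), 0.25 (Foxd) and 0.167 (Foxc, Foxp and Foxl). The summed levels are thus described by overlap alone. Those of the Foxf and Foxd pairs overlapped between the regions, while the Foxc sum went from 5.39 ± 0.391 to 10.1 ± 2.30 CPM per kb and the Foxp sum from 6.96 ± 0.216 to 14.5 ± 2.95 CPM per kb without overlap. The Foxl sum was lower in every posterior library, with 10.8 ± 1.15 CPM per kb in the anterior and 6.10 ± 1.31 CPM per kb in the posterior palate (SD, n = 3 for each).

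For an order of levels, CPM was divided by the length of all annotated exons of a gene, which is longest for Foxp1 (13751 bases) and Foxp2 (16346 bases), so that their level per length is understated where shorter transcript forms prevail. In the anterior palate Foxf2 (50.6 ± 6.46 CPM per kb) and Foxf1 (42.3 ± 8.48 CPM per kb) came first and overlapped each other. Foxd2 (11.6 ± 2.35 CPM per kb) followed below them and above all the rest. Foxl1, Foxp1, Foxd1, Foxc1 and Foxl2 lay between 6.73 and 4.07 CPM per kb on average, and neighbours in that order overlapped except Foxp1 and Foxd1. Foxp2 (0.834 ± 0.0881 CPM per kb) and Foxc2 (0.804 ± 0.138 CPM per kb) came last and did not differ beyond their spread. In the posterior palate Foxf2 (81.4 ± 17.8 CPM per kb) was alone at the top, followed without overlap by Foxd1 (20.1 ± 2.69 CPM per kb). Foxf1, Foxp1, Foxp2, Foxc2, Foxl1 and Foxc1 ranged from 8.15 to 4.31 CPM per kb on average, and each overlapped the next. Foxl2 (1.31 ± 0.588 CPM per kb) and Foxd2 (0.675 ± 0.503 CPM per kb) were the lowest and overlapped. Foxd2 thus moved from the third place to the last, and Foxd1 from the sixth to the second.

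The other forkhead genes were read in the same fit. Of the 34 others annotated 21 were tested and 2 were called, beside 7.46% of all genes, and their median absolute log2 fold change was 0.17, beside 0.24 over all genes. Foxq1, a factor of epithelia and hair, was measured at 6.15, 5.96 and 6.66 CPM in the anterior and 26.05, 23.3 and 20.6 CPM in the posterior libraries. It was thus higher in every posterior library, with a log2 fold change of 1.90 (SE 0.14, adjusted p = 0.000461). The 19 forkhead genes not called had log2 fold changes between -0.97 and 0.59. Among them were all 13 tested genes of the Foxj, Foxk, Foxn and Foxo groups, and the most abundant of them, Foxo3, Foxk2 and Foxn3, had log2 fold changes of 0.066, 0.060 and 0.097, which turned negative under a correction for transcript length. Of these 13 genes, 2 had an unadjusted p below 0.05, and DESeq2 called Foxj1, a factor of ciliated cells (-0.94, adjusted p = 0.00738) where edgeR and limma-voom called none.

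**Figure D3:**
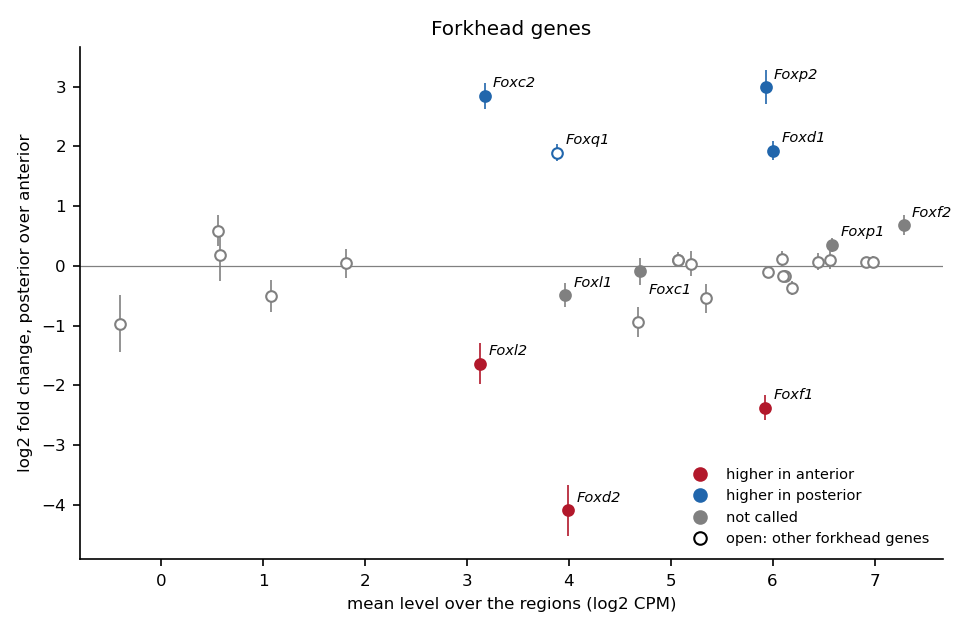
Log2 fold change, posterior over anterior, against the mean level (log2 CPM) of tested forkhead genes, with bars of 1 SE; filled points are the 10 genes described here and open points Foxq1 and the 19 other forkhead genes that were not called. Most open points lie close to 0, apart from Foxq1 (1.90).

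Several of the 10 genes lie together in the genome (positions from GENCODE M21, GRCm38). On chromosome 8 Foxf1 (121084386 to 121088144), Foxc2 (121116171 to 121118895) and Foxl1 (121127940 to 121130644) follow each other on the plus strand, their starts 31.8 and 11.8 kb apart. These neighbours did not move together: Foxf1 was higher in the anterior palate, Foxc2 higher in the posterior palate and Foxl1 not called, and Mthfsd, which starts between Foxf1 and Foxc2, had a log2 fold change of 0.10 (adjusted p = 0.558). On chromosome 13 Foxq1, Foxf2 (31625816 to 31631403) and Foxc1 (31806633 to 31812476) lie on a stretch with Foxf2 69.7 kb from Foxq1 and 180.8 kb from Foxc1. The pairs are therefore split between the clusters, with Foxf1 beside Foxc2 and Foxf2 beside Foxc1. Foxl2 lies on chromosome 9 (98955288 to 98958543), and both Foxp genes lie on chromosome 6, Foxp2 at 14901349 to 15441977 and Foxp1 at 98925338 to 99522721.

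Of 28 annotated genes that start within 100 kb of one of the 10, 14 were tested and 5 were called, beside 7.46% of all genes, and 4 of the 5 were genes other than Foxq1. Fendrr is a long non-coding RNA that starts 1.28 kb from Foxf1 on the opposite strand, and it is required in lateral mesoderm. It was measured at 16.2, 30.2 and 27.6 CPM in the anterior and 3.07, 4.41 and 4.25 CPM in the posterior libraries, a log2 fold change of -2.65 (SE 0.28, adjusted p = 0.00171). It was thus higher at the front, as Foxf1 was, and lowest of the anterior libraries in replicate 1 like Foxf1. Foxd2os, a non-coding gene that starts 0.384 kb from Foxd2, was measured at 16.4, 19.3 and 16.0 CPM in the anterior and 1.65, 3.18 and 0.960 CPM in the posterior libraries (-3.16, SE 0.36, adjusted p = 0.00271). It had the direction of Foxd2 and, like it, its highest posterior value in replicate 2. The non-coding gene 1700018A04Rik starts 24 bases from Foxf2 on the opposite strand, inside the promoter window printed above. It was measured at 5.16, 6.76 and 6.75 CPM in the anterior and 14.7, 12.9 and 15.2 CPM in the posterior libraries, and was called (1.198, SE 0.17, adjusted p = 0.00535) where Foxf2 itself was not.

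**Figure D4:**
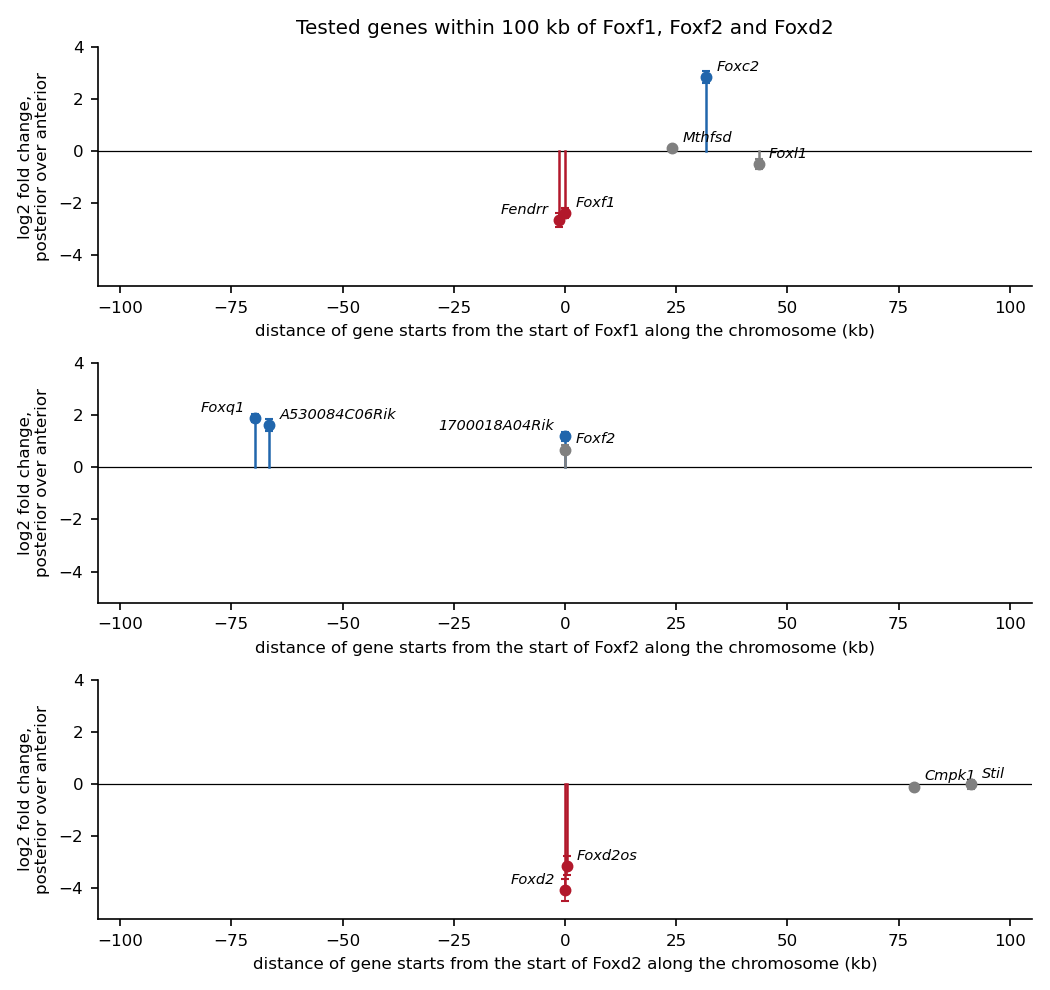
Log2 fold change with 1 SE of the tested genes that start within 100 kb of Foxf1, Foxf2 or Foxd2, against the distance of their starts in kb; red is called higher in the anterior, blue called higher in the posterior palate and grey not called. Fendrr and Foxd2os lie beside Foxf1 and Foxd2 and share their sign, while Foxc2, 31.8 kb from Foxf1, has the opposite sign.

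A530084C06Rik overlaps Foxq1 on the opposite strand and was higher in the posterior palate (1.64, SE 0.24, adjusted p = 0.00628). The other 9 tested neighbours, 7 of them protein coding (Mthfsd, Utp15, Ankra2, Btf3, Cmpk1, Stil and Faim, with the non-coding Foxl2os and Gm9828), had log2 fold changes from -0.70 to 0.10 and adjusted p-values of at least 0.196. Foxl2os, which starts 11 bases from Foxl2, had the lowest value of these (-0.70, SE 0.30, adjusted p = 0.196) and the direction of Foxl2. Reads on the strand opposite to a gene were few at the 10 genes, between 0 and 2.59% of both strands for 9 of them. At Foxl1 they made up 14.3% in the anterior libraries (35, 58 and 25 counts) and 4.60% in the posterior libraries (14, 8 and 4 counts).

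Hedgehog pathway genes were set beside the Foxf pair, since both Foxf genes respond to that signal. Of 12 pathway genes tested 3 were called, all higher in the anterior palate, beside 2.59% of all genes in that direction. The median log2 fold change was -0.29 over the 12 genes and -0.0040 over all genes. Of the 12 genes 9 had an unadjusted p below 0.05, and DESeq2 called 5. They included the ligand Shh (-1.27, adjusted p = 0.0196) and the co-receptor Gas1 (-0.50, adjusted p = 0.0167). The inhibitor Hhip (0.94, adjusted p = 0.0759) and the co-receptors Boc (0.66, adjusted p = 0.189) and Cdon (0.40, adjusted p = 0.183) had values of the opposite sign and did not pass the test. Of 7 palate genes linked to the Foxf genes, 3 were called toward the anterior palate, beside 2.59% of all genes, and 1 toward the posterior palate, beside 4.87%. Their median log2 fold change was -0.43, against -0.0040 over all genes. The first were Shox2 (-5.04, adjusted p = 0.000526), a regulator of anterior palate growth, the growth factor Fgf10 (-1.06, adjusted p = 0.00297) and the factor Osr1 (-0.55, adjusted p = 0.0174). Fgf18, a growth factor that is raised in Foxf mutants, was higher in the posterior palate (1.42, SE 0.17, adjusted p = 0.00344).

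Markers of the cells in the shelf were read in the same fit. Palatal mesenchyme markers were abundant in every library, adding up to 8902 to 9561 CPM in the anterior and 11931 to 18398 CPM in the posterior libraries, and of the 8 tested 1 was called higher in the anterior (Prrx1, -1.34) and 3 in the posterior palate (Twist1, Pdgfra and Col3a1). Most of this sum was Col1a1 and Col3a1, collagens that osteoblasts and other cells also make, and no value here assigns a forkhead gene to a cell type. Epithelial markers added up to 1729 to 1832 CPM in the anterior and 1210 to 1976 CPM in the posterior libraries, with 1 of 10 called (Trp63, -0.65). None of the 10 endothelial markers was called by edgeR or limma-voom (2 had an unadjusted p below 0.05 and 1 was called by DESeq2), and their sum was 542 to 571 CPM in the anterior and 472 to 746 CPM in the posterior libraries. None of the 6 myeloid markers was called by edgeR, limma-voom or DESeq2 (3 had an unadjusted p below 0.05), and their sum was 81.5 to 94.3 CPM in the anterior and 71.3 to 75.9 CPM in the posterior libraries. Of 6 mural markers Rgs5 (-2.04) and Kcnj8 (-1.72) were called toward the anterior palate, while Notch3 (1.08, adjusted p = 0.134) had the opposite sign without passing the test, and the median log2 fold change was 0.0049. The mural markers added up to 355 to 509 CPM in the anterior and 274 to 559 CPM in the posterior libraries. Of 6 glial markers 1 was called, higher in the posterior palate (Erbb3, 0.70). Chondrocyte markers added up to 181 to 274 CPM in the anterior and 523 to 775 CPM in the posterior libraries, with 2 of 5 tested called (Col2a1, 2.57, and Col9a1, 2.67). Osteoblast markers added up to 1968 to 3552 CPM in the anterior and 295 to 1821 CPM in the posterior libraries with none of 5 called by edgeR (3 had an unadjusted p below 0.05 and 3 were called by DESeq2, none by limma-voom), and Bglap had at most 3 counts in any library and 0 in all posterior libraries. Neuronal markers stood at 289 CPM in posterior replicate 2, although none of the 5 neuronal markers tested was called by edgeR (3 had an unadjusted p below 0.05, 2 were called by DESeq2 and none by limma-voom). Foxp2, Foxd2, Foxc1, Foxc2 and Foxl2 had their highest posterior value in that library. Foxf2, Foxd1, Foxl1 and Foxp1 had theirs in posterior replicate 1, and Foxf1 in posterior replicate 3. A link to the neuronal markers was not tested.

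As a description, the genes whose log2 levels over the 6 libraries were most like those of the 2 genes with the smallest adjusted p-value in each direction were listed, among the genes with a mean of at least 10 CPM (10375 for Foxf1 and 10376 for Foxc2). Those most like Foxf1 were Tmem192 (Pearson r 0.996), Fendrr (0.995) and Ppfibp2 (0.993). Those most like Foxc2 were Rtkn (0.996), Dtx4 (0.995) and Fign (0.994). All of these correlations carry the difference between the regions, and their points share libraries and depth. The size of the change varied among these genes: Fendrr had a log2 fold change of -2.65, close to that of Foxf1, whereas Tmem192 had one of -0.41 (adjusted p = 0.109) and Rtkn one of 0.40 (adjusted p = 0.0343).

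**Figure D5:**
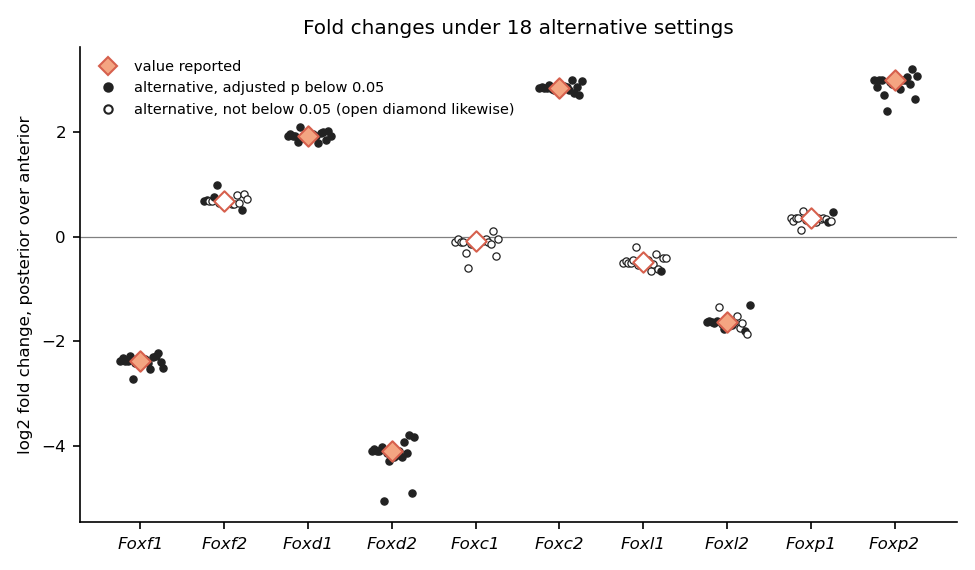
Log2 fold change of each of the 10 genes as reported (diamonds) and under 18 alternative settings (points), filled where the adjusted p-value was below 0.05. Foxf1, Foxd1, Foxd2, Foxc2 and Foxp2 were filled under every setting, whereas Foxf2, Foxl1, Foxl2 and Foxp1 were filled under some. The library-group term leaves posterior replicate 1 as the only posterior library compared, so its fill is not to be read.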

How the data were processed

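Gene counts of 6 palate libraries, 3 anterior and 3 posterior, were grouped by the region in their labels. The authors deposited raw read counts per gene, without normalization, for both strands together and for each strand. The study's methods and processing notes name HISAT2 with mm10, StringTie and DESeq2 1.30.1, while the files look like STAR's output of gene counts. Which annotation was used is not given in the sources used here. Reverse-stranded counts were used, which were 18.95 to 23.1 times those of the other strand. Symbols and positions were taken from GENCODE M21 by identifier without its version (52073 of 56691 identifiers, 35 of them with the same version).

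The test was the quasi-likelihood F-test of edgeR 4.0.16 (R 4.3.3) after TMM normalization, on every gene that reached 10 counts in 3 or more libraries. Region was the single factor, and p-values were adjusted by Benjamini and Hochberg's method, with calls below 0.05. The fits were tested on simulated data. Paralog ratios used CPM with 0.5 added. The upper limit set by a count of 0 is 3 counts, which is 0.198 to 0.264 CPM depending on the library, for counting error alone. Replicates differed by more than counting error. For pairs of anterior libraries, the chi-square statistic averaged over genes was 3.48 to 6.82. For posterior replicate 1 it was 54.0 against replicate 2 and 69.0 against replicate 3, whereas replicates 2 and 3 gave 9.52. The spread among the posterior libraries thus lay mostly between replicate 1 and the others.

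The 10 genes, the gene lists and the tests were chosen with earlier results of these data known. Text names were given to the 10 genes, to other forkhead genes that were called or most abundant, to tested neighbours within 100 kb, to up to 4 genes of each pathway list (Boc and Cdon were added beyond this number), and to the 3 genes most like Foxf1 and Foxc2. These additions, Foxi3, Foxj1 and the markers named were chosen after their values were seen. Alternatives were DESeq2 1.42.0, limma-voom (limma 3.58.1), RLE normalization, library size only, no low-count filter, 10 counts in every library, unstranded counts, GC and length corrections, a library-group term, the replicate number as a block (also with GC), a pseudocount of 2 CPM for the ratios, and leaving out each replicate. Results of some genes in the family and the lists are not given here. Transcript length and GC content were known for 99.0% of the genes tested.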

Additional observations from a re-analysis of the deposited data

How the results depend on the processing

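Foxf1, Foxd1, Foxd2, Foxc2 and Foxp2 kept their direction under all 18 alternatives, ranging over -2.73 to -2.22, 1.80 to 2.10, -5.05 to -3.79, 2.71 to 2.99 and 2.41 to 3.21 on the log2 scale. Their calls held under all of these apart from the library-group term, whose calls are not read since it leaves posterior replicate 1 alone. Of the 10 genes, 6 were called as reported, and 5 to 9 when 1 replicate was left out, the 9 without posterior replicate 1. The forkhead genes called numbered 8 as reported and 6 to 15 when 1 replicate was left out, the 15 without posterior replicate 1. Over all genes, 1169 were called as reported, 1978 with DESeq2, 2162 without the low-count filter, and 498 to 7119 when 1 replicate was left out, the 7119 without posterior replicate 1. The posterior libraries left in that fit, replicates 2 and 3, were the posterior pair that differed least from each other. Whether this accounts for the added calls was not tested. The paralog ratios kept their direction under every alternative, with differences between the regions of -3.18 to -2.68 (Foxf), 4.99 to 6.35 (Foxd), -2.98 to -2.21 (Foxc), 0.81 to 1.44 (Foxl) and -2.87 to -2.30 (Foxp). With fewer than 3 libraries in a region these tests have a higher smallest p, so their p-values say nothing about stability.

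The labels do not say whether same-numbered libraries of the regions are paired. Deviations of same-numbered libraries from their region means correlated at -0.05 to 0.045. With 3 libraries per region these values cannot decide whether the libraries are paired. With the replicate number as a block 6 of the 10 genes and 829 genes in all were called, and none of the 10 gained or lost a call.

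Among 28 single genes, 24 of 499 alternative values changed sign, in 11 genes. The genes that changed sign with the length correction were Foxo3 (-0.17), Foxk2 (-0.065), Foxn3 (-0.14), Mthfsd (-0.19) and Gm9828 (0.074). Those that changed sign with the library-group term were Utp15 (0.067), Ankra2 (-0.045), Btf3 (0.047), Gm9828 (0.14) and Faim (0.10). Without posterior replicate 1, Btf3 (-0.33) and Faim (-0.40) kept their sign and were called. Ankra2 was -0.045 with the GC correction, -0.013 with library size only and -0.051 with the replicate block and GC correction. Leaving out 1 replicate gave -0.37 to 0.11 for Foxc1, -0.057 to 0.20 for Foxn3, -0.087 to 0.0019 for Utp15, -0.11 to 0.13 for Ankra2, -0.19 to 0.15 for Gm9828 and -0.17 to 0.11 for Stil. The cause was not tested. Depth limits Foxd2 and Foxl2 in the posterior and Foxc2 in the anterior palate, which rest on 12 to 76 counts per library.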

Other observations

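The 13 annotated forkhead genes that did not pass the filter on low counts had at most 47 counts in a library, and Foxb1, Foxd4 and Foxr1 had none in any library. The highest count was that of Foxi3, a factor of ectodermal placodes and teeth, in anterior replicate 3 (47), against 2 and 2 in the other anterior libraries and 0 in each posterior library. On the strand opposite to Foxq1, 57, 79 and 46 reads were counted in the anterior and 249, 203 and 174 in the posterior libraries, a strand on which A530084C06Rik is annotated.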
